A study of Mus musculus with 12 samples.

Results

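Collagen genes were followed in the spinal cord of mice in which Tardbp was deleted with Gfap-Cre. The set held every gene whose symbol has the form Col, a number, a, a number, and whose mean over the 12 mice was at least 0.5 normalized TPM, a measure of abundance per transcript length and per library. Of 44 such symbols among the 36121 genes of the table, 37 passed this limit. By structure they comprised all 11 fibrillar collagens, all 9 fibril-associated collagens, 4 of 6 type IV genes, 4 of 6 type VI genes, 3 of 4 transmembrane collagens, 2 of 3 network-forming collagens, both endostatin-forming collagens, the anchoring fibril collagen Col7a1 and Col26a1. The 7 genes below the limit were Col4a6, Col6a6, Col4a4, Col28a1, Col6a5, Col17a1 and Col10a1. The members nearest the limit were Col6a4 at 0.517 TPM and Col14a1 at 0.664 TPM, and the nearest gene outside it was Col4a6 at 0.303 TPM.

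All 12 mice were C57BL6 animals aged 3 months, in 3 groups of 4 (mice 1 to 4 in the order of their records), and each group held 2 males and 2 females. Control mice had the genotype Tardbp-fl/fl and no Cre. The cHet mice were Gfap-Cre with Tardbp-fl/+, and the cKO mice were Gfap-Cre with Tardbp-fl/fl, so that cHet and cKO shared the Cre and control and cKO shared both floxed alleles. The protein of Tardbp is TDP-43, which binds RNA in the nucleus, and the Gfap promoter that drives Cre is active in astrocytes. Whole spinal cord was sequenced, so a level reflects all cells of the cord, and fewer cells of a type and less RNA per cell cannot be told apart. Tardbp stood at 166 to 181 TPM in control, 158 to 178 TPM in cHet and 140.5 to 151 TPM in cKO, and was lower in cKO than in control by 0.20 on the log2 scale (limma, adjusted p = 0.0123).

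Collagens are matrix proteins whose chains wind around each other in a rope-like helix of repeated glycine triplets. Fibrillar chains form the banded fibrils of connective tissue, fibril-associated chains sit on their surface, and type IV chains form the sheet of basement membranes around vessels and under the meninges. Transmembrane collagens instead span the plasma membrane and can be shed from it. In nervous tissue the genes of types I, III, IV, VI, XV and XVIII are known chiefly from meningeal fibroblasts and vessel cells.

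The genes listed here as known chiefly from meninges and vessels made up a minor share of the measured collagen RNA. The 11 genes of types I, III, VI, XV and XVIII and of the first 2 type IV chains that passed the limit held 20.5% of the summed collagen TPM. Col4a3, Col4a5 and Col8a2 were not counted, so the share depends on this list. The cells that gave the rest of the collagen RNA were not tested. The 5 most abundant genes, Col16a1, Col11a2, Col11a1, Col9a3 and Col9a2, belong to other types and held 52.0%. Endothelial markers (12 of 12) and mural markers (10 of 10) were present at 0.5 TPM or more. Of 15 meningeal fibroblast markers 10 reached that level, and Slc22a6 at 0.0361 TPM, Foxc2 at 0.0528 TPM and Dpep1 at 0.0565 TPM were near 0. The genes are therefore called collagen genes here, with no cell type attached.

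The proximal promoters of the 3 transmembrane collagens are shown because they contain the collagen gene called in a comparison, Col23a1, and its structural relatives Col25a1 and Col13a1. Each is the stretch of 250 bases before the RefSeq start (GRCm38.p6), read 5′ to 3′ on the strand of the gene. Capitals mark matches, on either strand, to the letters CCAAT of the box of that name, to the GC box spelled GGGCGG, or to the usual core promoter signal of many genes, spelled TATAAA. No printed match overlaps another.
Col23a1, chr11:51289670-51289919, plus strand: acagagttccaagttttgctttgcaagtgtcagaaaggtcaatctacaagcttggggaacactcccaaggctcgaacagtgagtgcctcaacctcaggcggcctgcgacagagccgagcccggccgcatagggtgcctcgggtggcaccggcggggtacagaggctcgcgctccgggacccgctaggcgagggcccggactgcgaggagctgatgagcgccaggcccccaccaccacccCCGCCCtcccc
Col25a1, chr3:130180595-130180844, plus strand: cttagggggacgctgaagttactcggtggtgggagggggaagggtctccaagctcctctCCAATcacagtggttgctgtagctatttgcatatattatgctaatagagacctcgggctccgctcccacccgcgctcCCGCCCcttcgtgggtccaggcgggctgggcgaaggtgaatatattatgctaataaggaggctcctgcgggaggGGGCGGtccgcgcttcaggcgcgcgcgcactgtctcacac
Col13a1, chr10:61979109-61979358, minus strand: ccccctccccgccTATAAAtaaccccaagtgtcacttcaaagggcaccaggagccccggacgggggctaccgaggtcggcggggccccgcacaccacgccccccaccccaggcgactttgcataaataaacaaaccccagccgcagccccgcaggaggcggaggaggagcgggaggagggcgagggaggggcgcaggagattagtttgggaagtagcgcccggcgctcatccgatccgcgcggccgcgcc
The Col23a1 window held 1 GC box close to its 3′ end, the Col25a1 window 2 GC boxes and 1 CCAAT box, and the Col13a1 window 1 match to the core promoter signal near its 5′ end. No exon of the GENCODE M21 annotation lay in any of the 3 windows, and the Col25a1 window lay inside the annotated gene, in an intron. A RefSeq promoter could be matched to 28 of the 37 collagen genes, by 31 windows. A GC box occurred in 18 of these 28 genes, a CCAAT box in 12 and the core promoter signal in 3, against 32.7%, 33.8% and 12.4% of all 32851 windows of this length. The collagen counts are of genes with a match in any of their windows and the percentages are of single windows, so the 2 are not the same measure. The median GC content was 59.6% in the collagen windows and 52.4% in all windows. These are matches of letters and no measure of binding.

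The collagen levels spanned from 0.517 TPM to 48.0 TPM. Col16a1, a fibril-associated collagen, was the most abundant at 48.0 TPM over the 12 mice, followed by Col11a2 at 33.2 TPM, Col11a1 at 30.3 TPM, Col9a3 at 25.0 TPM and Col9a2 at 16.3 TPM. Col11a1 and Col11a2 encode chains of the minor fibrillar collagen XI, and Col9a2 and Col9a3 encode chains of the fibril-associated collagen IX, both known from cartilage. Col16a1 was above Col11a2 in all 12 mice. Col11a2 was above Col11a1 in only 7 of 12 mice, so the order of this pair was not resolved. Col9a3 was above Col9a2 in every mouse with no overlap of their ranges.

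Next, 5 genes had means between 9.85 and 13.8 TPM, each overlapping its next lower neighbour in range. These were Col4a2 at 13.8, Col25a1 at 13.7, Col26a1 at 13.1, Col4a1 at 10.7 and Col1a2 at 9.85 TPM. Col23a1 followed at 8.69 TPM and overlapped Col1a2 in range. In all, 9 genes had a mean of 10 TPM or more, 31 had 1 TPM or more and 6 were below 1 TPM. From Col5a2 down, each gene overlapped its next lower neighbour in range.

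**Figure D1:**
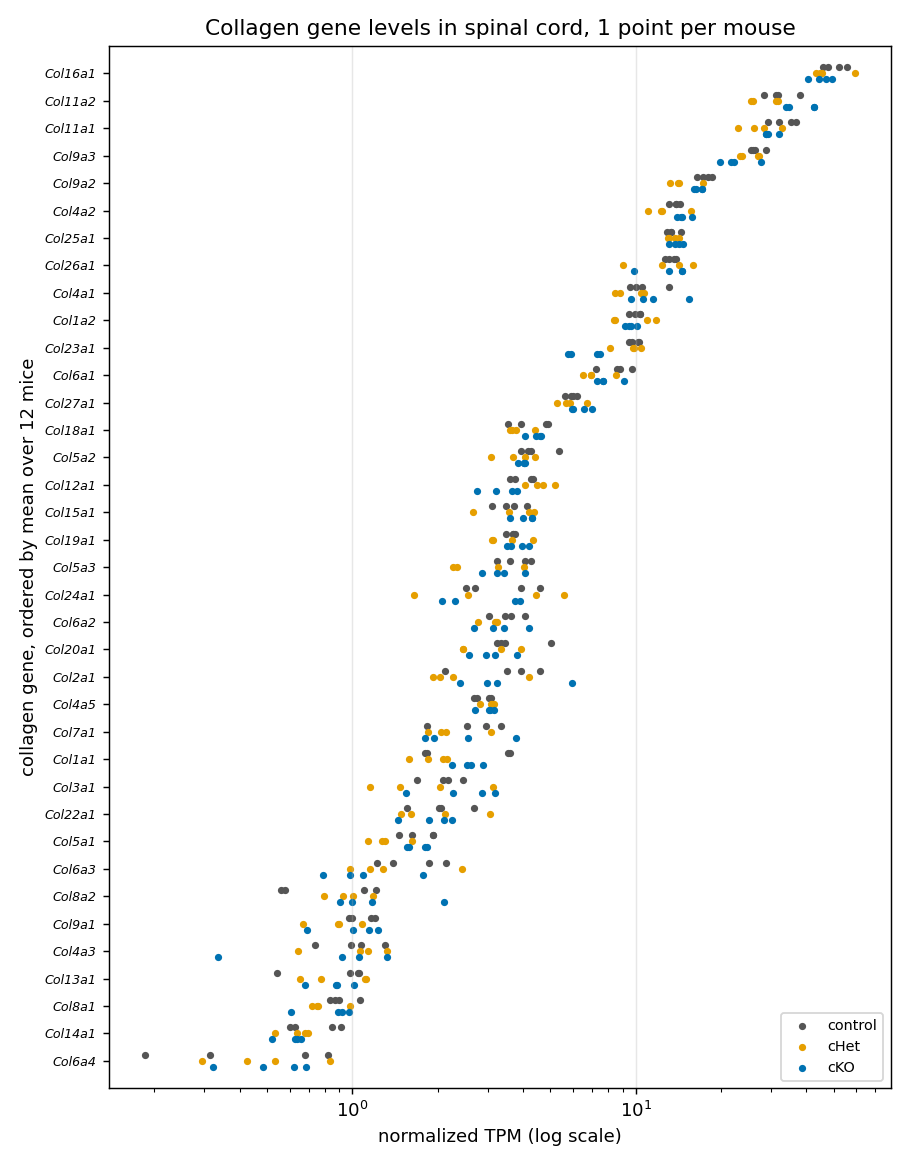
Normalized TPM of the 37 collagen genes on a log axis, with a point for each of the 12 mice coloured by genotype and genes ordered by their mean. Genes run from Col16a1 at 48.0 TPM to Col6a4 at 0.517 TPM, and only Col23a1 has its 4 cKO points to the left of all control and cHet points.

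The transmembrane class held the collagen gene that was called between genotypes. Col23a1 (ENSMUSG00000063564), on the plus strand at chr11:51289920-51583918 of GRCm38, encodes a transmembrane collagen. It was measured at 9.47, 9.74, 10.2 and 10.3 TPM in the control mice, at 9.84, 9.78, 8.12 and 10.4 TPM in the cHet mice, and at 7.28, 7.50, 5.89 and 5.75 TPM in the cKO mice. Every cKO mouse was below every control and every cHet mouse, whereas control and cHet overlapped.

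Col23a1 was lower in cKO than in control by 0.56 ± 0.10 (SE) on the log2(TPM + 0.5) scale, a fold of 0.678 (limma, adjusted p = 0.00425). Against cHet it was lower by 0.50 ± 0.10, a fold of 0.706 (limma, adjusted p = 0.0104). The exact permutation test over all 70 assignments of 8 mice gave p = 0.0286 for each, two-sided, the smallest p it allows. In cHet against control the log2 change was -0.06 with a 95% interval from -0.27 to 0.15. By sex, the cKO difference from control was -0.51 in males and -0.61 in females. The call was kept in 22 of 22 alternative settings, with a highest adjusted p of 0.0154 against control and 0.0474 against cHet. In the authors' deposited tables the likelihood ratio q for Col23a1 was 0.0057 against control and 0.0339 against cHet.

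Marker RNA of other cell types also differed between the groups. The summed level of 8 oligodendrocyte markers was 20625 to 21567 TPM in control, 20660 to 24401 TPM in cHet and 17155 to 19543 TPM in cKO, and 6 of the 8 were called lower in cKO than in control. The sum of 6 oligodendrocyte precursor markers was 144 to 162, 151 to 153 and 111 to 136 TPM in the same order. Of these 1 of 6 was called lower, Sox10, which is also on the list of Schwann cell markers used below. Astrocyte markers summed to 2777 to 2914, 2749 to 3014 and 3323 to 3730 TPM, with 4 of 10 called higher and 2 called lower, and 6 of 8 microglia markers were called higher. The part of these markers in the Col23a1 result was not tested.

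The other transmembrane collagens were not called. Col25a1, the precursor of a peptide found in amyloid plaques, stood at 13.4, 13.4, 14.5 and 12.9 TPM in control, 14.3, 13.7, 13.0 and 13.1 TPM in cHet and 13.7, 14.2, 13.1 and 14.7 TPM in cKO. Its log2 change in cKO was 0.04, with a 95% interval from -0.07 to 0.16, among the narrowest of the set. Col13a1, known from the neuromuscular junction, was low. It ranged from 0.541 to 1.05 TPM in control, 0.651 to 1.12 TPM in cHet and 0.681 to 1.02 TPM in cKO. Its log2 interval in cKO against control ran from -0.41 to 0.34. The within-group SD of Col13a1 on the log2 scale was 0.77 times the median of genes at the same level. The groups overlapped for both genes. The summed level of the class was 24.3 ± 0.88 TPM over the 4 control mice, 24 ± 1.20 TPM over the cHet mice and 21.4 ± 1.11 TPM over the cKO mice (SD).

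**Figure D2:**
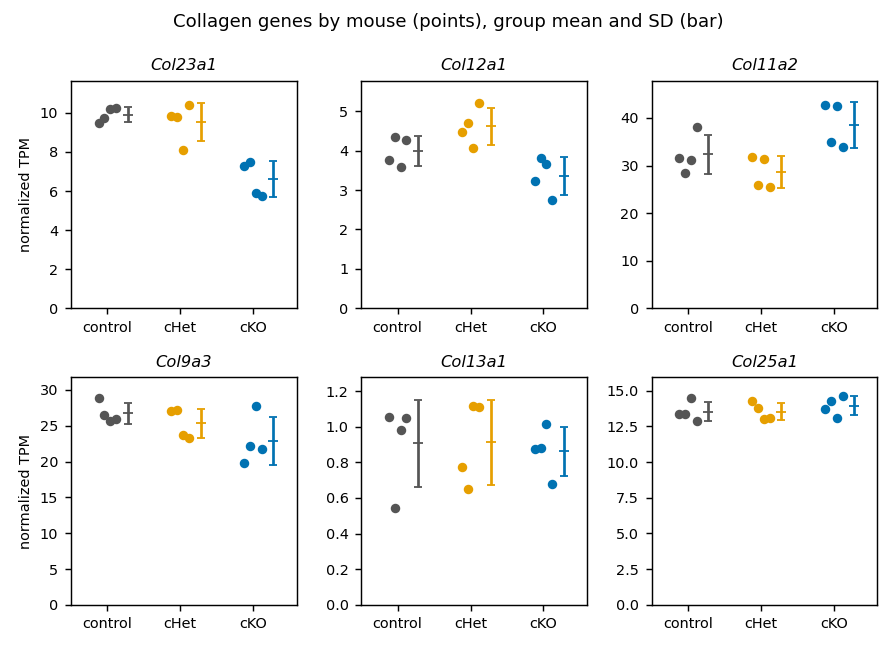
Normalized TPM of Col23a1, Col12a1, Col11a2, Col9a3, Col13a1 and Col25a1 by genotype, with a point for each mouse and the group mean ± SD beside the points, on axes that start at 0. The 4 Col23a1 values of cKO lie between 5.75 and 7.50 TPM, below all values of control and cHet, while the groups overlap for Col13a1 and Col25a1.

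Across the whole set, Col23a1 was the 1 of 37 collagen genes called in cKO against control, 2.70%, where 8.01% of the 16751 genes tested were called. It was also the 1 collagen gene whose cKO and control mice did not overlap, against 16.0% of all genes. Among all genes 865 were higher and 476 lower, and this split changed to 700 and 530 with median-of-ratios rescaling and to 462 and 790 when mitochondrially encoded genes were left out of the scaling. At an unadjusted p under 0.05 there were 3 collagen genes, 8.11%, against 21.5% of all genes. The median log2 change was -0.07 over the collagen genes and 0.01 over all genes. Among the 28 collagen genes with a longest annotated transcript of 5000 bases or more, 11 were positive. Of all 3199 genes of that length 39.9% were positive, with a median of -0.03, so the lean to negative values was not particular to collagen genes. For 28 of the 37 genes the 95% interval lay within a 1.5-fold change in either direction, and for the other 9 a change of that size was within the interval.

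In cHet against control no collagen gene was called (limma), against 0.00597% of all genes, that is 1 gene. At an unadjusted p under 0.05 there were 4 collagen genes, 10.8%, and 10.8% of all genes. In the authors' deposited table for this pair no collagen gene had a q under 0.05 by either test. None of the 37 had non-overlapping groups, against 5.90% of all genes. The log2 change was negative for 30 of 37 collagen genes, including all 11 fibrillar genes, with a median of -0.12, where 54.1% of all genes were positive with a median of 0.01. Without cHet mouse 3, a female, 24 of 37 and 7 of 11 fibrillar genes were negative and the median was -0.06. Collagen transcripts are long, and 28 of the 37 have a longest annotated transcript of 5000 bases or more. With all mice in the fit, 5 of these 28 genes were positive and 23 negative, beside 46.1% positive among all 3199 genes of that length. This count is not given without cHet mouse 3, and the part of transcript length was not tested.

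In cKO against cHet Col23a1 was again the 1 collagen gene called, where 4.33% of all genes were. Non-overlapping groups were found for 4 of 37 collagen genes, 10.8%, the same percentage as over all genes. These were Col23a1 and Col12a1, lower in cKO, and Col11a2 and Col1a1, higher in cKO. The log2 change was positive for 25 of 37 genes, with a median of 0.09 against 0.01 over all genes. The 3 comparisons share mice, since each group enters 2 of them, and their values are not independent of each other.

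**Figure D3:**
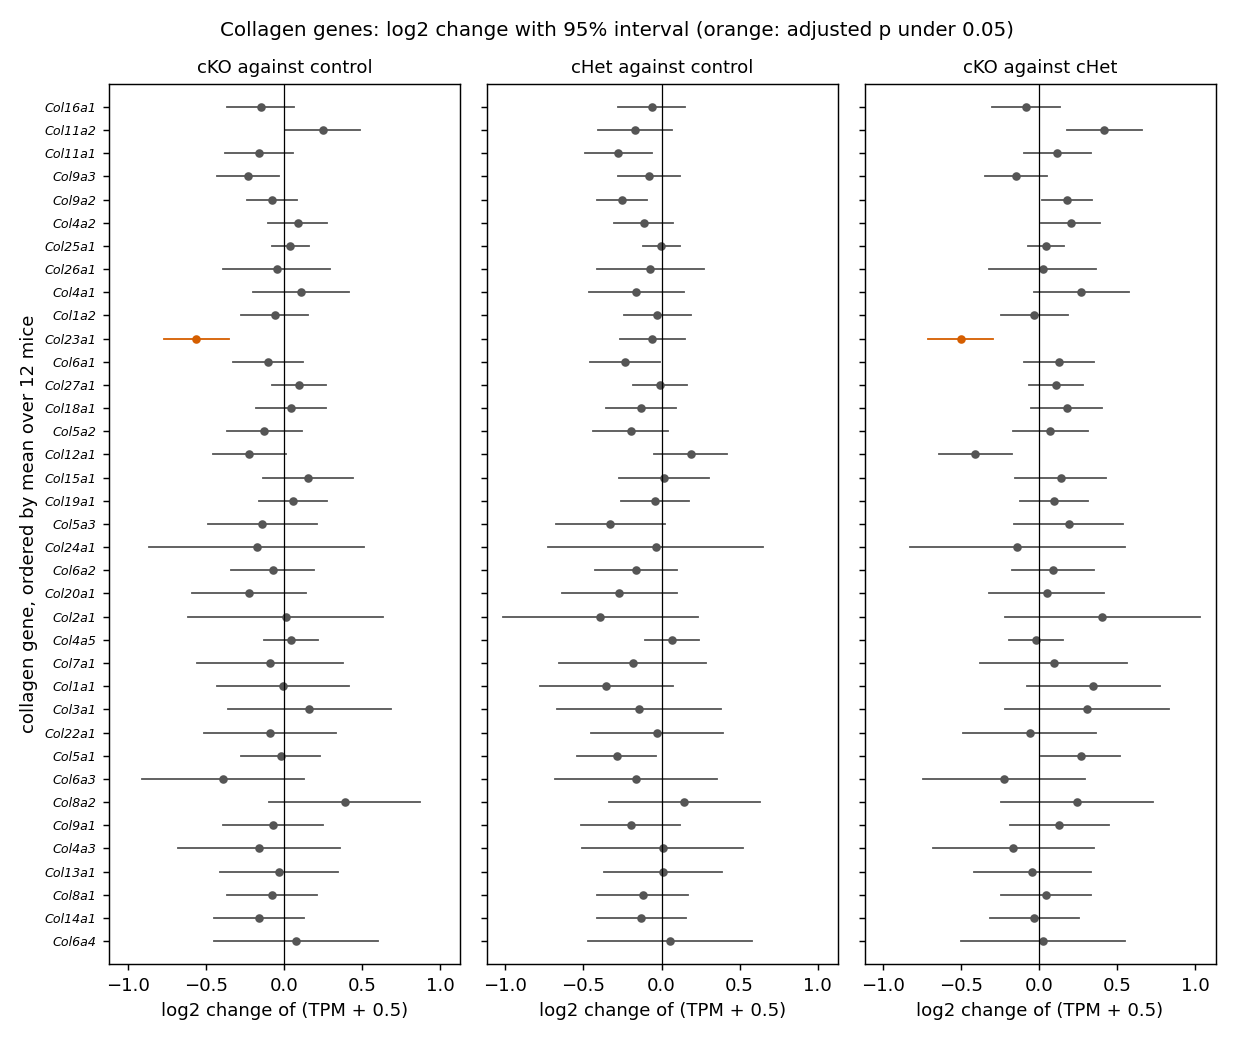
Log2 change of TPM + 0.5 for the 37 collagen genes in each of the 3 comparisons, with 95% intervals from limma, ordered by mean level, and orange where the adjusted p over all genes was under 0.05. Col23a1 is the only orange gene, at -0.56 against control and -0.50 against cHet, and in cHet against control most points lie left of 0.

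Among the fibrillar collagens none was called. Col11a2, the most abundant of them, stood at 31.7, 28.5, 31.2 and 38.1 TPM in control, 31.9, 26.0, 31.3 and 25.6 TPM in cHet and 42.7, 34.9, 42.6 and 33.9 TPM in cKO. All cKO mice were above all cHet mice, and cKO overlapped control through the highest control mouse. The log2 change was 0.42 ± 0.11 (SE) against cHet (limma, adjusted p = 0.0544) and 0.25 ± 0.11 against control (limma, adjusted p = 0.214). The first of these passed 0.05 in 4 of 22 alternative settings, 2 of which leave out a single mouse, control mouse 4 or cHet mouse 1 (limma, adjusted p = 0.0382 and 0.0488). For Col11a2 in cKO against cHet the authors' deposited table gave a likelihood ratio q of 0.0493.

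Col11a1, its partner chain, stood at 32.1, 36.9, 35.5 and 29.2 TPM in control, 32.9, 23.0, 26.2 and 28.4 TPM in cHet and 32.1, 29.3, 28.9 and 28.8 TPM in cKO, with overlap of all groups. Its log2 change in cHet against control was -0.28 ± 0.10 (limma, adjusted p = 0.354). The ratio of Col11a2 to Col11a1 had a mean and SD over 4 mice of 0.986 ± 0.229 for control, 1.05 ± 0.137 for cHet and 1.29 ± 0.140 for cKO.

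Col5a1, a chain of the fibril-nucleating collagen V, stood at 1.62, 1.92, 1.92 and 1.46 TPM in control, 1.62, 1.14, 1.27 and 1.30 TPM in cHet and 1.83, 1.59, 1.56 and 1.80 TPM in cKO. The log2 change in cHet against control was -0.29 ± 0.12 (limma, adjusted p = 0.407), and control and cHet overlapped through 1 cHet mouse. Col1a1 and Col1a2 encode the chains of type I collagen, the main fibril of the meninges. Col1a1 stood at 1.84, 3.54, 1.80 and 3.61 TPM in control, 1.58, 2.09, 1.84 and 2.16 TPM in cHet and 2.88, 2.54, 2.63 and 2.24 TPM in cKO, so that cKO was above cHet in every mouse while control spanned both. Its log2 change in cKO against cHet was 0.35 with an interval from -0.08 to 0.77. Col1a2 was steadier, with log2 intervals from -0.27 to 0.16 in cKO and from -0.24 to 0.19 in cHet against control. The summed fibrillar level was 104 ± 2.27 TPM over the control mice, 90.3 ± 9.04 TPM over the cHet mice and 105 ± 6.91 TPM over the cKO mice (SD, n = 4).

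The fibril-associated collagens likewise held no called gene. Col16a1 stood at 45.8, 55.6, 52.1 and 47.7 TPM in control, 59.5, 43.5, 44.9 and 45.4 TPM in cHet and 49.4, 40.5, 44.3 and 47.0 TPM in cKO. The groups overlapped, and the log2 interval in cKO against control ran from -0.37 to 0.07. Col9a3 stood at 28.9, 26.5, 25.6 and 26.0 TPM in control, 27.0, 27.2, 23.8 and 23.4 TPM in cHet and 19.8, 22.2, 27.7 and 21.8 TPM in cKO. In cKO 3 mice were below all controls and mouse 3 was not, and the log2 change was -0.23 ± 0.09 (limma, adjusted p = 0.163). Without that mouse it was -0.32 (limma, adjusted p = 0.0228), a call that rests on leaving it out.

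Col9a2 stood at 18.6, 17.9, 17.3 and 16.5 TPM in control, 13.3, 17.3, 14.2 and 14.1 TPM in cHet and 16.1, 17.1, 16.3 and 17.2 TPM in cKO. Of the cHet mice 3 were below all control and cKO mice and mouse 2 was not. The log2 change in cHet against control was -0.25 ± 0.07 (limma, adjusted p = 0.273), the smallest p of the set in that comparison. In cKO against cHet it was 0.18 (limma, adjusted p = 0.235), and 0.26 without that cHet mouse (limma, adjusted p = 0.0263).

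Col12a1, which associates with type I fibrils, stood at 3.76, 4.34, 3.59 and 4.28 TPM in control, 4.47, 4.70, 4.08 and 5.21 TPM in cHet and 3.22, 3.82, 3.67 and 2.75 TPM in cKO. All cKO mice were below all cHet mice, and control lay between with overlap on both sides. The log2 change in cKO against cHet was -0.41 ± 0.11 (limma, adjusted p = 0.0552). In the authors' deposited table the q of Col12a1 in that comparison was 0.0707 by the likelihood ratio test and 0.0266 by the Wald test. By sex the log2 difference was -0.44 in males and -0.38 in females.

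No basement membrane collagen was called. Col4a1 and Col4a2 encode the chains found in nearly all basement membranes. Their genes lie head to head on chromosome 8 of GRCm38, Col4a1 at chr8:11198423-11312826 on the minus strand and Col4a2 at chr8:11312805-11449287 on the plus strand, and overlap by 22 bases. Whether the libraries kept strand is not given in the sources used here, so reads within those bases could belong to either gene.

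Col4a2 stood at 13.9, 14.3, 13.9 and 13.1 TPM in control, 15.7, 12.4, 11 and 12.3 TPM in cHet and 15.8, 14.5, 14.6 and 14 TPM in cKO. The cHet mice 2, 3 and 4 were the lowest of all 12, and the log2 change in cKO against cHet was 0.20 ± 0.09 (limma, adjusted p = 0.258), or 0.30 without cHet mouse 1 (limma, adjusted p = 0.0193). Col4a1 ranged from 9.53 to 13.1 TPM in control, 8.43 to 10.7 TPM in cHet and 9.67 to 15.5 TPM in cKO. The ratio of Col4a2 to Col4a1 had a median of 1.28 over the 12 mice and group means of 1.30, 1.35 and 1.28. In cKO against control the log2 change of Col4a5 was 0.04, with a 95% interval from -0.13 to 0.22. That of Col4a3 was -0.16, with an interval from -0.68 to 0.36 that reaches a 1.5-fold change.

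The remaining classes held no call in any comparison. Col6a1, a chain of the beaded filaments of collagen VI, stood at 8.80, 8.61, 9.71 and 7.25 TPM in control, 6.96, 6.54, 6.94 and 8.54 TPM in cHet and 9.12, 7.66, 7.69 and 7.33 TPM in cKO. In cHet against control its log2 change was -0.23 ± 0.10 (limma, adjusted p = 0.448), and the groups overlapped through 1 cHet and 1 control mouse. Col18a1, the source of endostatin in vessel and epithelial basement membranes, stood at 3.55, 4.83, 4.90 and 3.95 TPM in control, 3.60, 4.43, 3.78 and 3.67 TPM in cHet and 4.07, 4.63, 4.44 and 4.60 TPM in cKO. All 3 groups overlapped for Col18a1.

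Col26a1 stood at 12.7, 13.8, 13.7 and 13.1 TPM in control, 16.0, 9.03, 12.4 and 14.3 TPM in cHet and 14.5, 13.1, 14.6 and 9.86 TPM in cKO, so that the control mice lay inside the wider ranges of the other groups. Col7a1, the collagen of anchoring fibrils under epithelia, stood at 1.83, 2.54, 3.34 and 2.96 TPM in control, 2.13, 1.84, 2.06 and 3.08 TPM in cHet and 1.94, 1.80, 2.56 and 3.78 TPM in cKO. Col8a2, a network-forming collagen of the cornea and vessels, stood at 1.21, 1.10, 0.559 and 0.576 TPM in control, 0.929, 1.18, 0.793 and 1.0 TPM in cHet and 1.17, 0.901, 2.10 and 1.0 TPM in cKO. Its log2 interval in cKO against control, from -0.10 to 0.87, was among the 9 that reach a 1.5-fold change.

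The collagen genes differed in how steady they were between mice of a genotype. The within-group SD of Col24a1, a fibrillar collagen, was 0.50 on the log2 scale, 2.55 times the median of genes at the same level. Col2a1, the main fibril of cartilage, was at 2.3 times, Col26a1 at 2.27 and Col4a1 at 2.0 times that median. At the other end Col4a5 was at 0.40 times, Col14a1 at 0.42 and Col25a1 at 0.60 times. Col23a1 was at 1.01 times, so its spread was that of a typical gene of its level.

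Levels of collagen genes were also compared with vessel and meningeal markers across the 12 mice, each value taken as its deviation from its group mean. Over 111 relations between 37 genes and the means of the meningeal fibroblast, endothelial and mural lists, none had an adjusted permutation p under 0.05. The median Pearson r over the 37 genes was 0.16 for meningeal fibroblast markers, -0.18 for endothelial markers and -0.19 for mural markers. The smallest p belonged to Col19a1 with mural markers, at a Pearson r of -0.77 (exact permutation within groups, p = 0.00376, adjusted 0.418) and a Spearman rho of -0.71 (exact permutation p = 0.00521, adjusted 0.578). Without the 2 mice farthest from the median r was -0.76. These marker lists held 1 called gene in 10 for meningeal fibroblasts (Fmod, higher in cKO), 0 in 12 for endothelium and 1 in 10 for mural cells (Tagln, a smooth muscle actin-binding protein, lower in cKO by 0.59, limma, adjusted p = 0.00904), beside 8.01% of all genes tested.

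The proteins that make, trim and bind collagen were then read from lists of known function. For cKO against control, 2 of 20 genes of collagen modification and folding were called, 3 of 10 of procollagen processing and crosslinking, 1 of 11 of degradation, 1 of 8 receptors, 2 of 8 small leucine-rich proteoglycans and 0 of 17 basement membrane partners, where 8.01% of all genes tested were called. With lists this short a single gene moves the share by several percent, and nothing is read from the counts about a list as a whole. In cHet against control no gene of these lists was called. In cKO against cHet, P4ha3, Pcolce2 and Adgrg6 were lower and Loxl1, Loxl2, Dcn and Fmod higher.

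Prolyl hydroxylation, the step that lets the helix hold at body temperature, needs a catalytic subunit encoded by P4ha1, P4ha2 or P4ha3. P4ha3 stood at 12.6, 11, 11.1 and 13.0 TPM in control, 8.78, 10.3, 12.7 and 10.5 TPM in cHet and 6.26, 5.70, 7.19 and 6.32 TPM in cKO. Every cKO mouse was below every other mouse, and P4ha3 was lower in cKO than in control by 0.86 ± 0.10 (limma, adjusted p = 0.000492). It was also lower than in cHet, by 0.68 (limma, adjusted p = 0.00272). The log2 changes of P4ha1 and P4ha2 were 0.26 and 0.20 and did not pass the test (limma, adjusted p = 0.115 and 0.425). Fkbp10, a chaperone needed for collagen crosslinking, was at 3.78 ± 0.42 TPM in control and 5.66 ± 1.02 TPM in cKO and was higher by 0.52 (limma, adjusted p = 0.0277), a call lost in 7 of 22 alternative settings with an adjusted p of up to 0.0741. Those were no filter on low values and leaving out control mouse 1, 2 or 4 or cKO mouse 1, 3 or 4. The cHet mice ranged from 3.85 to 5.07 TPM for Fkbp10 and overlapped the cKO mice, at 4.68 to 7.07 TPM. Fkbp10 was not called in cKO against cHet.

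Bmp1, the protease that removes the carboxyl propeptide, stood at 14.5, 15.4, 15.2 and 14.9 TPM in control, 14.3, 12.6, 13.7 and 14.2 TPM in cHet and 11.1, 12.8, 12.5 and 10.5 TPM in cKO. It was lower in cKO than in control, without overlap, by 0.35 ± 0.07 (limma, adjusted p = 0.00829). The cKO and cHet mice, which share the Cre, overlapped for Bmp1, and it was not called between them. Loxl2, a crosslinking enzyme of the lysyl oxidase family, stood at 2.21, 2.06, 1.68 and 1.95 TPM in control, 2.03, 2.21, 2.13 and 1.95 TPM in cHet and 3.35, 3.37, 3.27 and 3.35 TPM in cKO. The cKO mice were tightly grouped above all others, and Loxl2 was higher than in control by 0.64 ± 0.09 (limma, adjusted p = 0.000886) and higher than in cHet by 0.57 (limma, adjusted p = 0.00243).

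Loxl1 of the same family had group means of 1.32 ± 0.21 TPM (control), 1.15 ± 0.30 TPM (cHet) and 2.32 ± 0.30 TPM (cKO), each with its SD over 4 mice, and was higher in cKO than in control by 0.63 (limma, adjusted p = 0.0190). That call was lost when control mouse 2, control mouse 3 or cKO mouse 2 was left out (limma, adjusted p = 0.0539, 0.0541 and 0.0633). Lox itself was under 0.5 TPM and not tested. Pcolce2, an enhancer of Bmp1, was lower in cKO than in cHet by 0.60 (limma, adjusted p = 0.0382).

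Among genes that break collagen down or protect it, Timp4, a metalloproteinase inhibitor, was at 39.98 ± 2.58 TPM in control and 48.8 ± 3.56 TPM in cKO and was higher by 0.29 (limma, adjusted p = 0.0355), a call lost in 8 of 22 alternative settings with an adjusted p of up to 0.102. Those were no filter, scaling without mitochondrial genes, a variance prior without trend, and leaving out control mouse 2 or 3 or cKO mouse 1, 2 or 4. Timp4 was not called in cKO against cHet. The metalloproteinases Mmp2, Mmp9, Mmp14, Mmp15 and Mmp16 were not called. Among receptors, Adgrg6, an adhesion receptor of Schwann cells that binds type IV collagen, stood at 2.18, 2.08, 2.58 and 2.98 TPM in control, 1.56, 2.13, 2.03 and 2.32 TPM in cHet and 1.25, 1.37, 1.14 and 1.24 TPM in cKO. All cKO mice were below all others, and Adgrg6 was lower than in control by 0.75 ± 0.13 (limma, adjusted p = 0.00416). Beside it, 8 Schwann cell and nerve root markers summed to 214 to 233 TPM in control and 184 to 198 TPM in cKO. Of the 6 that were tested, Pmp22 and Sox10 were called lower. Sox10 is also on the list of oligodendrocyte precursor markers, so its call is not particular to Schwann cells. The part of these markers in the Adgrg6 result was not tested.

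Small leucine-rich proteoglycans coat fibrils and set their width. Dcn stood at 8.73, 10.8, 8.21 and 10.7 TPM in control, 10.6, 11.6, 10.8 and 12 TPM in cHet and 14.6, 15.6, 14.9 and 13.4 TPM in cKO. Fmod stood at 3.70, 3.85, 4.28 and 3.26 TPM in control, 4.0, 4.07, 3.56 and 4.49 TPM in cHet and 5.65, 5.87, 6.93 and 5.21 TPM in cKO. For both, every cKO mouse was above every other mouse, by 0.59 ± 0.09 for Dcn and 0.58 ± 0.10 for Fmod against control (limma, adjusted p = 0.0019 and 0.00495). Meningeal fibroblast markers summed to 30.9 to 34.8 TPM in control, 30.8 to 37.4 TPM in cHet and 29.1 to 36.1 TPM in cKO, with overlap of all groups. That list itself holds Fmod and Lum. It also holds Pdgfra, which is on the list of oligodendrocyte precursor markers too, so the sum is not a measure of fibroblasts alone. Lum, of the same family as Dcn, had a log2 change of 0.43 that did not pass the test (limma, adjusted p = 0.0807). Of the basement membrane partners Agrn (log2 change -0.20, adjusted p = 0.0626) and Lama5 (log2 change -0.67, adjusted p = 0.0776) had the smallest p by limma. Agrn passed 0.05 in 3 of 22 alternative settings, among them leaving out cHet mouse 4 (limma, adjusted p = 0.0217).

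**Figure D4:**
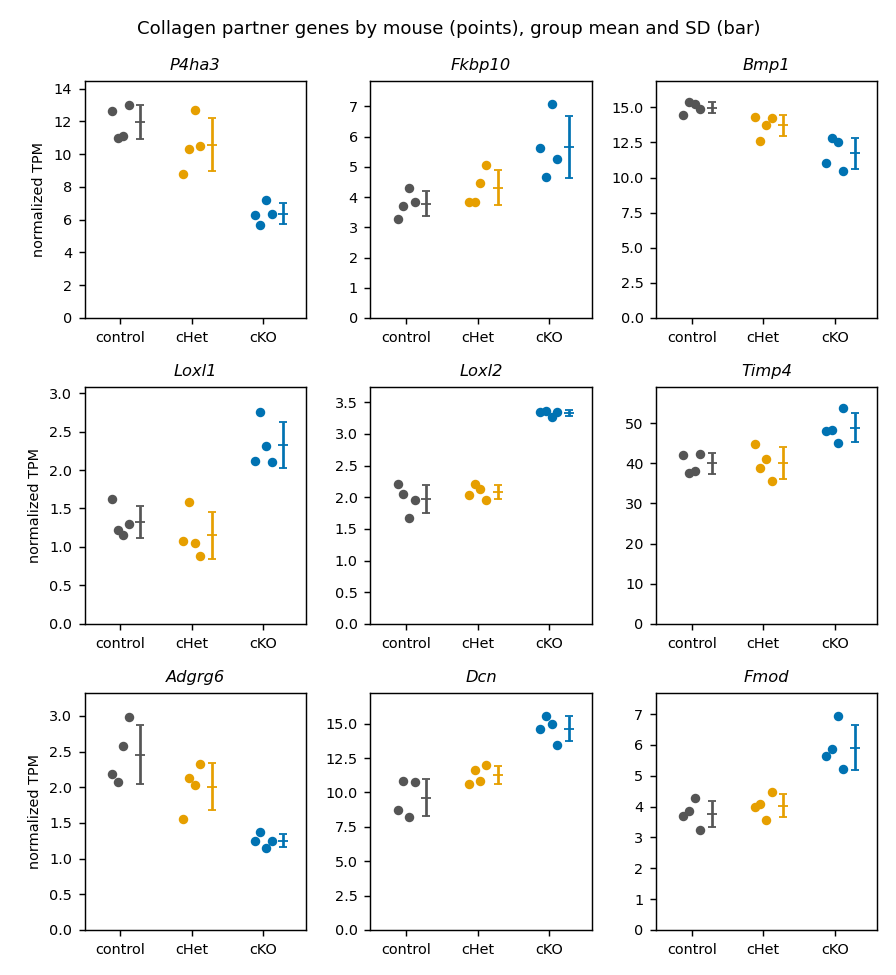
Normalized TPM of the collagen partner genes called in cKO against control, with a point for each mouse and the group mean ± SD beside the points, on axes that start at 0. P4ha3, Bmp1 and Adgrg6 are lower in cKO and Fkbp10, Loxl1, Loxl2, Timp4, Dcn and Fmod higher, with no overlap between cKO and control in any panel.

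Chains that assemble together did not all stand at matching levels. The ratio of Col1a2 to Col1a1 had a median of 4.46 over the 12 mice and ran from 2.62 to 5.75, although type I collagen carries more of the chain encoded by Col1a1. Col9a2 exceeded Col9a1 by a median ratio of 15.9, Col5a2 exceeded Col5a1 by 2.58, and Col6a1 exceeded Col6a2 by 2.38. These are ratios of TPM, which is scaled for transcript length, and RNA levels are not protein levels. The group means of the Col1a2 to Col1a1 ratio were 4.20 ± 1.72 for control, 5.16 ± 0.379 for cHet and 3.77 ± 0.466 for cKO (SD over 4 mice).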

How the data were processed

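RNA of whole spinal cord from 12 mice was sequenced, with libraries from an Illumina TruSeq kit per the labels' protocols. The values used were the authors' deposited signal, a normalized TPM per gene. Per the submitters' processing notes, kallisto 0.44.0 and sleuth 0.30.0 were used with GRCm38, and the annotation release is not given in the sources used here. Library totals differed, so this signal was scaled further than TPM alone. The totals ran from 954895 to 978621 in control and from 1017860 to 1048380 in cKO, without overlap. The mitochondrial share ran from 16.0% to 18.3% in control and from 19.0% to 20.4% in cKO. Depth is unknown, since TPM does not keep it, and no counting interval is given. The authors' deposited tables also hold p-values and q-values of likelihood ratio and Wald tests, quoted for single genes.

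The 16751 genes whose mean reached 0.5 TPM were compared on log2(TPM + 0.5), which understates changes of low genes, with limma 3.58.1 in R 4.3.3 (3 groups in the fit, no covariate, eBayes with trend, two-sided). Benjamini-Hochberg adjustment ran over all genes of a comparison, and a gene was called at an adjusted p under 0.05. The step was tested on simulated data. For a symbol with several rows the row of highest mean was used. Each library came from a separate mouse by its label. Values per mouse are given for members called in a comparison, for the most abundant member of each structural class and for the 3 members of smallest p in a comparison. From each partner list up to 4 called genes are named, or the 2 of smallest p. Col1a1, Col1a2, Col4a1, P4ha1, P4ha2, Lum, Lox, the metalloproteinases and Pcolce2 were named after their values were seen, as were the chain ratios. The members and the lists were chosen with earlier results of these data known. Coordinates come from GENCODE M21. Alternatives changed the pseudocount, filter, scaling, covariate, samples in the fit, variance prior and gene copies, and left out each mouse.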

Additional observations from a re-analysis of the deposited data

Results flagged for a closer look

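In 7 of 111 groups of 4 mice (37 collagen genes in 3 genotypes) the highest or lowest mouse stood apart from the other 3 by a gap above Dixon's 95% critical value for a group of that size. Chance alone flags about 1 in 20 such groups.

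Mouse 1 of cHet was highest for Col16a1, at 59.5 TPM with the next at 45.4 TPM, and for the cartilage fibril gene Col2a1, at 4.21 TPM with the next at 2.26 TPM. Mouse 4 of cHet was highest for Col8a1, a network-forming collagen, at 0.983 TPM with the next at 0.753 TPM. Mouse 2 of cHet was lowest for Col6a2 of the beaded filaments, at 2.76 TPM with the next at 3.20 TPM. In cKO mouse 1 was highest for Col11a1, at 32.1 TPM with the next at 29.3 TPM. In control mouse 3 was highest for the fibril-associated Col20a1, at 5.03 TPM with the next at 3.45 TPM, and mouse 2 was lowest for the transmembrane Col13a1, at 0.541 TPM with the next at 0.980 TPM. None of these genes was called in a comparison, and Col23a1 is not among them.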

How the results depend on the processing

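Col23a1 kept its direction and its call in every alternative run. The direction counts were less stable. In cHet against control 24 to 33 of 37 collagen genes were negative, and without cHet mouse 3 several changed sign. Among all genes called in cKO against control, higher calls outnumbered lower ones except when rescaled without mitochondrial genes (462 higher, 790 lower). Leaving out each mouse in turn, the collagen genes called ranged from 1 to 2 in cKO against control, where Col9a3 was added without cKO mouse 3, and from 1 to 3 in cKO against cHet. In the latter, Col11a2 was added without control mouse 4, Col11a2 and Col4a2 without cHet mouse 1, and Col9a2 without cHet mouse 2. Under the limit of 1 TPM and with sex as a covariate there were 2, with Col11a2 added. Over all genes tested, leaving out a mouse gave 779 to 1453 calls in cKO against control (1341 with all mice), with 779, 853 and 869 without cKO mouse 2, cKO mouse 4 and control mouse 2. It gave 1 to 3 calls in cHet against control, with 3 without control mouse 2 and 2 without cHet mouse 4. That count, 1 with all mice and the filter at 0.5 TPM, was 0 under the limit of 1 TPM, 2 with no filter and 4 when rescaled without mitochondrial genes. No paired analysis was possible because the labels give the mice no replicate numbers shared across groups. With 4 mice a group, the intervals of 9 collagen genes in each comparison with control still reach a 1.5-fold change, and depth is unknown for TPM.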

Other observations

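Several collagen genes are neighbours on their chromosomes. Col3a1 and Col5a2 lie tail to tail on chromosome 1, 24.6 kb apart, and Col9a1 and Col19a1 lie tail to tail on the same chromosome, 9.21 kb apart. Col6a2 and Col6a1 lie on the same strand of chromosome 10, 85.2 kb apart. Levels of neighbours were alike in some pairs and unlike in others. Col4a2 was at 13.8 TPM and Col4a1 at 10.7 TPM, Col6a1 was at 7.93 TPM and Col6a2 at 3.34 TPM, Col19a1 was at 3.68 TPM and Col9a1 at 0.994 TPM, and Col5a2 was at 4.09 TPM and Col3a1 at 2.17 TPM over the 12 mice. Deviations of the head-to-head pair Col4a1 and Col4a2 from their group means had a Pearson r of 0.15 (exact permutation within groups, p = 0.648) and a Spearman rho of 0.20 (exact permutation p = 0.549), and r was -0.08 without the 2 farthest mice. This pair was among 12 chosen after the data were seen, and its adjusted p were 0.778 and 0.804.

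The collagen transcripts were long, with a median longest annotated transcript of 5930 bases against 3093 bases over 15282 tested genes. A run of 12 bases of repeated TG, the sequence that TDP-43 is known to bind as UG in RNA, was in the annotated transcripts of 2 of the 37 collagen genes, Col22a1 and Col8a1, against 8.19% of the tested genes. Neither was called in a comparison. In the spliced transcripts of Col23a1 the longest such run was 6 bases. Only spliced transcripts were searched, of up to 5658 bases for Col23a1, while the gene spans 293999 bases. Repeats in introns were not counted, so whether these genes hold such a run there was not tested.

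Of the 9 partner genes called in cKO against control, P4ha3, Loxl2, Bmp1, Adgrg6, Dcn and Fmod kept their call in every alternative setting, while Fkbp10, Loxl1 and Timp4 did not.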
